A study of Mus musculus with 14 samples.

Results

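Lungs of 4 mechanically ventilated wild-type mice were compared with lungs of 3 wild-type control mice, on 7 of the 14 arrays of the study. The arrays were chosen by the strain and treatment in their titles, and all 19621 probes were kept. In 1 title, that of ventilated replicate 2, the strain is spelled c47/b in place of c57/b, and the array was taken as wild-type. Ventilated mice were C57/BL6 wild-type animals that received ketamine and acepromazine, a tracheostomy and 8 hours of ventilation with room air, at a tidal volume of 10 ml/kg and a positive end-expiratory pressure (PEEP) of 2 cmH2O, with a recruiting inflation and a dose of the muscle relaxant pancuronium every hour. Control mice were C57/BL6 wild-type animals that were killed straight after the same anesthesia, so that ventilation, hours under anesthesia and paralysis, fasting and time of day cannot be told apart here. The other 7 arrays held lungs of jnk1-/- mice, which lack the stress kinase JNK1 in every cell, 4 ventilated and 3 control. They entered the estimate of the spread between animals and the comparison between genotypes that closes this account. Each array held RNA of right lung tissue from 1 animal, as far as the titles show, and the mice were adults that the study matched by age and sex.

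Mechanical ventilation stretches the alveolar wall, and stretched epithelium, endothelium and resident macrophages release chemokines that draw neutrophils out of the blood. Neutrophils bring granule proteases and reactive oxygen species, against which lung cells hold antioxidant enzymes, protease inhibitors and acute phase proteins. Stress kinases and the transcription factor NF-kB are known to link stretch to these genes, and glucocorticoids of the stress response induce another set. In whole lung, fewer cells of a type and less RNA per cell cannot be told apart.

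The arrays were CodeLink 20K mouse arrays, on which each probe gives the fluorescence of labelled RNA from 1 sample. All levels below are log2 intensities after cyclic loess normalization, given for ventilated replicates 1 to 4 and then for control replicates 1 to 3. Differences are ventilated minus control, with the standard error (SE) and the adjusted p of limma's moderated test over all probes. A difference was called at an adjusted p under 0.05. A probe was taken as below background on an array where the authors' normalized table holds its lowest value, 3.122, as 24.5% of its values do. Where every array of a group was below background, the fold is given as a lower bound, the mean of the other group over a background level of 3.22 or the value itself where that was higher. Levels of different probes cannot be ranked against each other. Control arrays 2 and 3 stood apart from the other 12, with 10.7% and 6.98% of deposited values at the lowest value of the file, against 1.86% to 4.52% elsewhere. Lung markers were bright in both groups. The surfactant protein gene Sftpa1 was at 14.60, 14.04, 14.09 and 14.08 in ventilated lungs, against 14.00, 14.10 and 14.29 in control lungs. The club cell gene Cyp2f2 lay between 13.31 and 14.25 and the type 1 cell gene Ager between 11.07 and 11.83 over the 7 arrays. The ciliated cell regulator Foxj1 and the endothelial cadherin Cdh5 were below background on 5 and 6 of the 7 arrays. The markers Sftpc, Scgb1a1 and S100a9 were not analysed here.

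After ventilation, 718 of 19621 probes differed (3.66%), 424 of them higher (2.16%) and 294 lower (1.5%). The called probes named 611 genes. Of the probes, 569 had a fitted change of more than 2-fold, which includes folds that rest on values below background. Of the higher probes, 95 were below background on all control arrays, and of the lower probes, 23 were below background on all ventilated arrays. Among these, 30 were below background on all 7 wild-type arrays, and their differences have no size. The median difference over all probes was 0.077. Without regard to the test, 4285 probes had no overlap between the groups (21.8%). The number of calls depended on which arrays were used, and lay between 301 (without control 2) and 1028 (without control 1) when each array was left out in turn. It was 174 without both controls 2 and 3. Of the 152 named probes that were called, 69 kept their call in each of these 7 fits. For the others, the arrays whose removal ended the call are given below with the highest adjusted p they led to.

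**Figure D1:**
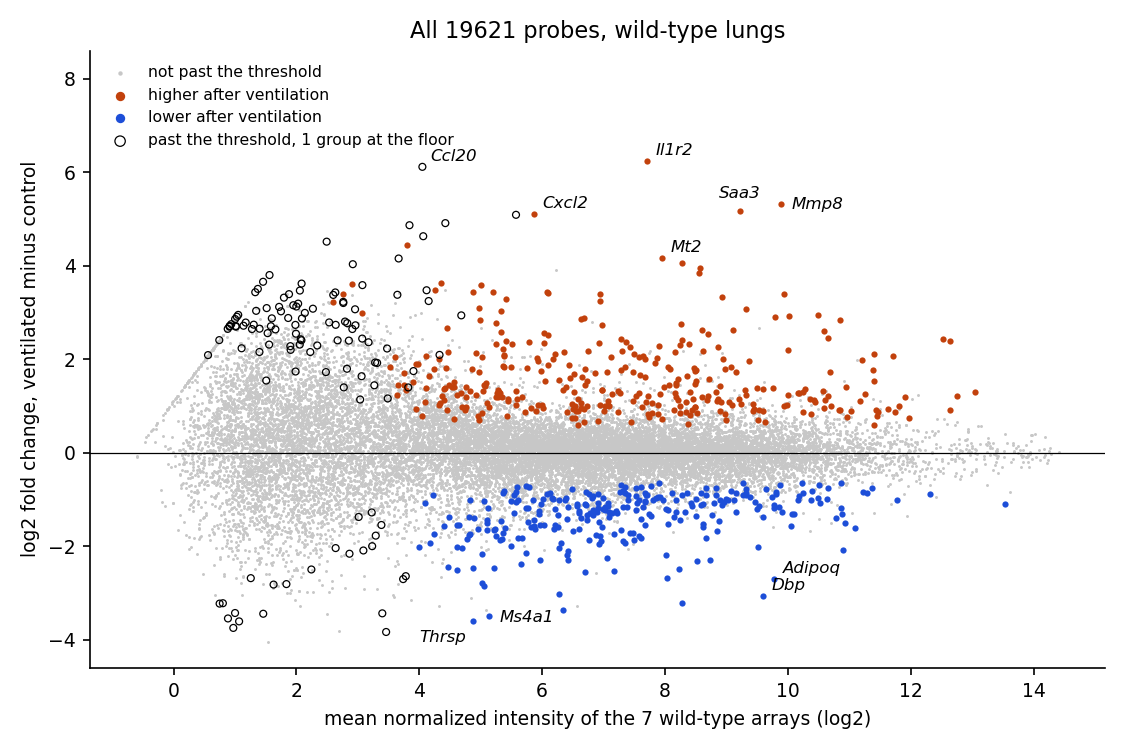
Difference between ventilated and control wild-type lungs (log2, y axis) against the mean log2 intensity over the 7 arrays (x axis), 1 point per probe, with called probes filled by direction, or as open circles where every array of 1 group was below background. Among the 424 higher and 294 lower calls, the open circles lie at low mean intensity, mostly above 0, and some genes with large differences are labelled.

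The largest difference among probes measured in both groups was that of Il1r2, the decoy receptor that takes up interleukin 1 without signalling. Its levels were 11.32, 8.97, 11.04 and 10.20 in ventilated lungs, against 4.63, 4.40 and 3.38 in control lungs (difference 6.24, SE 0.59, limma adjusted p = 0.000333). The lowest ventilated array was far above the highest control. Mmp8, the collagenase of neutrophil granules, followed with 12.74, 11.98, 12.10 and 11.85 in ventilated lungs, against 7.29, 6.95 and 6.31 in control lungs (difference 5.31, SE 0.33, limma adjusted p = 3.27e-05). Its ventilated arrays lay within 1 log2 unit of each other. Saa3, a serum amyloid A made by macrophages and epithelium in mice, was at 12.16, 11.60, 11.97 and 10.02 in ventilated lungs, against 6.11, 6.04 and 6.62 in control lungs (difference 5.18, SE 0.61, limma adjusted p = 0.00129). Ventilated replicate 4 was the lowest of its group for this gene and still far above the controls.

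**Figure D2:**
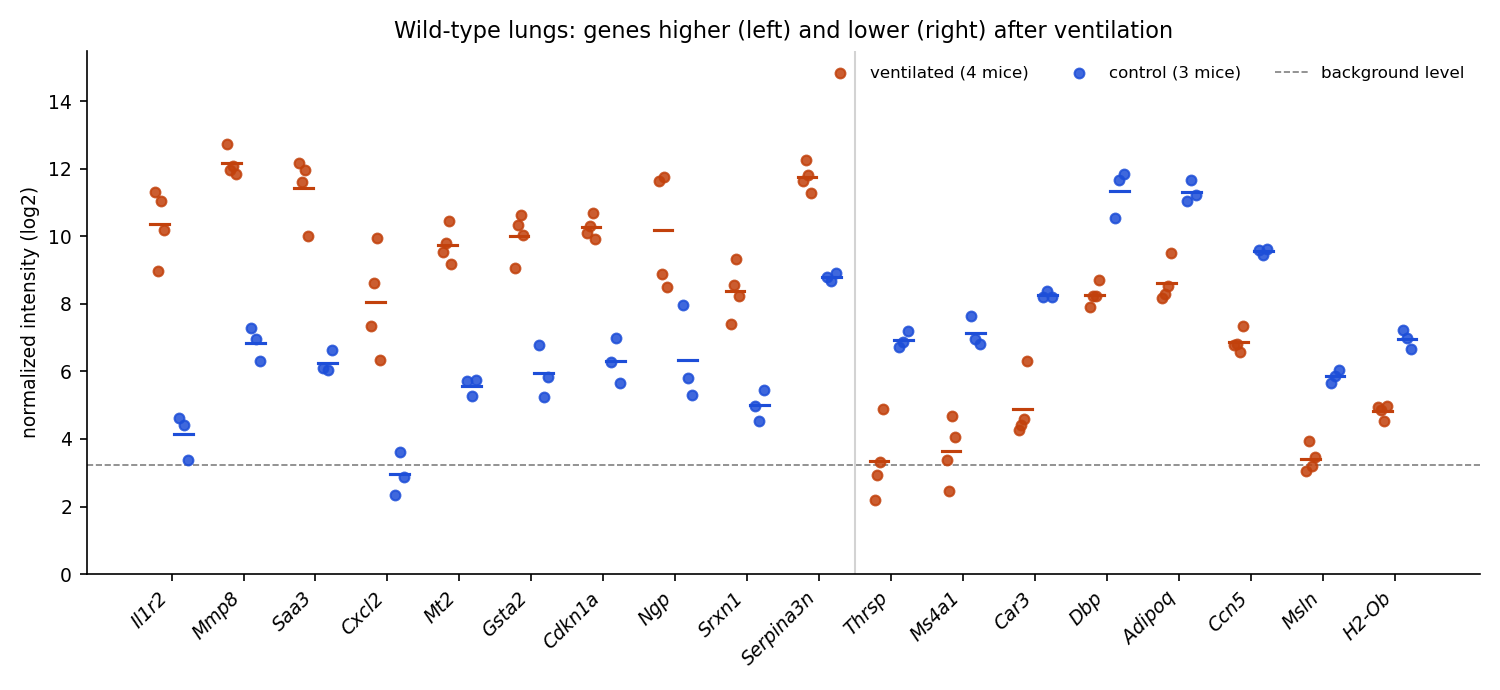
Normalized log2 intensity (y axis) of 18 genes on each wild-type array, with the 4 ventilated mice left of the 3 control mice for each gene, a bar at the group mean and a dashed line at the background level of 3.22. No ventilated point overlaps a control point of the same gene, and the ventilated points of Ngp form a high and a low pair. The genes were picked among called genes, many by a rule that required no overlap, and 21.8% of all probes had none.

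Receptors of neutrophils and monocytes were among the lists with the most calls. Of 24 measured surface receptors of these cells, 12 rose and none fell, where, with 1 probe per gene, 2.36% of all genes rose, 1.79% fell and 4.14% did either. The median difference of the list was 1.65. Mrgpra2b, a Mas-related receptor of mouse neutrophils, was at 8.29, 7.06, 8.65 and 7.02 in ventilated lungs and below background in all controls (3.10, 2.32 and 2.58), at least 23.2-fold higher (limma adjusted p = 0.000288). Trem1, a receptor that amplifies Toll-like receptor signals, was at 6.91, 5.68, 7.36 and 6.17 in ventilated lungs and also below background in all controls, at least 9.89-fold higher (limma adjusted p = 0.000333). For both genes ventilated replicates 1 and 3 were the highest. Clec4d, a lectin that senses mycobacterial glycolipids, was at 10.81, 9.90, 10.84 and 9.90 in ventilated lungs, against 7.35, 7.13 and 6.60 in control lungs (difference 3.34, SE 0.32). Replicates 1 and 3 were also the highest for the inhibitory receptor Cd300lf (9.93, 8.57, 9.58 and 9.17, against 7.12, 6.90 and 6.69 in control lungs) and the Fc receptor Fcgr3 (10.51, 9.52, 10.83 and 10.01, against 8.64, 8.11 and 7.98 in control lungs). The other risers were Ly6c1 (difference 2.01), Cd177 (3.42), the integrin subunit Itgam (1.54), Cd33 (2.85), Clec4e (2.58) and Ceacam1 (1.71), with Il1r2 given above. The markers Csf3r and Cxcr2, the receptors for granulocyte colony stimulating factor and for CXC chemokines, were not called (differences 0.31 and 2.26, adjusted p = 0.684 and 0.0942) and overlapped between the groups. Calls were lost for Cd177 and Itgam without control 3 (adjusted p up to 0.071), for Cd33 without control 2 or ventilated 1 or 3 (up to 0.072), for Clec4e without control 2 or 3 or ventilated 1 or 3 (up to 0.096) and for Ceacam1 without control 3 or any ventilated mouse (up to 0.11). The count of 12 lay between 8 (without control 3) and 15 (without control 1), and was 6 without both controls 2 and 3.

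Genes of neutrophil granules moved less evenly. Of 16 measured, 3 rose (Mmp8, S100a8 and Ngp) and none fell, with a median of 0.89. S100a8, a subunit of the calcium-binding protein calprotectin, was at 12.86, 14.01, 14.16 and 13.60 in ventilated lungs, against 10.93, 12.05 and 10.83 in control lungs (difference 2.38, SE 0.45, limma adjusted p = 0.0148). Ngp, the neutrophilic granule protein, was at 11.65, 8.87, 11.77 and 8.50 in ventilated lungs, against 7.97, 5.80 and 5.29 in control lungs (difference 3.84, SE 0.87, limma adjusted p = 0.0333). Its ventilated levels fell into a high pair (1 and 3) and a low pair (2 and 4), and the low pair lay just above control replicate 1. Slfn4, a schlafen gene of myeloid cells, was at 6.14, 5.14, 6.55 and 5.94 in ventilated lungs and below background in all controls, at least 6.59-fold higher. The call of S100a8 was lost without control 3 (adjusted p = 0.068) and that of Ngp without control 2 or 3 or ventilated 1 or 3 (up to 0.13), so that the count of 3 lay between 1 (without control 3) and 5 (without control 1). Of 22 measured genes of lung macrophages none rose, and Aif1, an actin-bundling protein, fell by 1.71, a call lost without control 2 or 3 or ventilated 1, 2 or 4 (up to 0.1). The share called in the macrophage list was 4.55%, where 4.14% of all genes were called.

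Chemokines and cytokines rose as single members of large families. Cxcl2, a ligand of the neutrophil receptor Cxcr2, was at 7.33, 8.63, 9.95 and 6.33 in ventilated lungs, against 2.35, 3.61 and 2.88 in control lungs, of which 2 were below background (difference 5.11, SE 0.68, limma adjusted p = 0.00294). Ccl20, which attracts cells that carry Ccr6, was at 6.59, 8.29, 5.17 and 6.65 in ventilated lungs and below background in all controls (1.15, -0.63 and 1.15), at least 10.9-fold higher (limma adjusted p = 0.00383). The interleukin Il6, which drives the acute phase response, was at 5.35, 7.75, 7.85 and 6.35 in ventilated lungs, against 3.72, 2.95 and 3.91 in control lungs, 1 of them below background (difference 3.29, SE 0.67, limma adjusted p = 0.0216). Ventilated replicates 2 and 3 were the highest for Il6, unlike for the myeloid receptors. Socs3, the feedback inhibitor that STAT3 induces, had the same order, with 7.78, 8.50, 9.18 and 7.83 in ventilated lungs, against 6.18, 5.60 and 5.88 in control lungs (difference 2.44, SE 0.50, limma adjusted p = 0.0228). Osmr, the oncostatin M receptor, rose by 1.45 and Il1f9 (interleukin 36 gamma) by 2.04. Ccr1, a receptor for CC chemokines on myeloid cells, was at 8.52, 7.48, 8.47 and 8.16 in ventilated lungs, against 6.02, 5.27 and 4.95 in control lungs (difference 2.74, SE 0.31). The transmembrane chemokine Cxcl16 rose by 0.70. In all, 3 of 15 genes of the interleukin 6 family, 2 of 16 of the interleukin 1 family, 2 of 17 CXC and 2 of 32 CC chemokine genes rose, and none of these fell. The shares called were 20%, 12.5%, 11.8% and 6.25%, where 4.14% of all genes were called. Some well-known members were not called. Il1b did not overlap between the groups (9.53, 9.25, 9.96 and 9.50 in ventilated lungs, against 7.74, 8.55 and 7.52 in control lungs) but had an adjusted p of 0.0582. Tnf, below background on 3 of the 7 arrays, and Ccl2 overlapped (adjusted p = 0.524 and 0.393). These 3 genes were picked after their values were seen. Leaving out single arrays ended the calls for Il6 and Socs3 without control 2 or 3 or ventilated 2 or 3 (adjusted p up to 0.089), for Osmr without control 2 or 3 or ventilated 2, 3 or 4 (up to 0.099) and for Cxcl16 without control 2 or 3 or ventilated 1, 2 or 3 (up to 0.15). The interleukin 6 family had 0 calls without control 2, control 3, ventilated 2 or ventilated 3 and 4 without control 1.

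Genes of the NF-kB pathway and of its feedback rose in 6 of 20 measured, with none falling and a median of 0.67. Nfkbia, the inhibitor that NF-kB itself induces, was at 13.39, 13.08, 13.64 and 12.98 in ventilated lungs, against 12.13, 11.97 and 12.09 in control lungs (difference 1.21, SE 0.22, limma adjusted p = 0.0138). The other inhibitor Nfkbib rose by 1.16 and the NF-kB subunit Nfkb2 by 1.01. The TNF receptor Tnfrsf1a rose by 1.11, the TWEAK receptor Tnfrsf12a by 2.35 and Tnfaip2 by 1.20. Among 19 Toll-like receptor genes 2 rose, Cd14 (11.63, 11.28, 11.88 and 10.94 in ventilated lungs, against 9.76, 9.84 and 9.49 in control lungs) and the adaptor Myd88 (difference 1.26). Calls were lost without control 2 for Nfkbia (adjusted p = 0.058), Nfkbib (0.054) and Myd88 (0.052), without control 2 or 3 or ventilated 1 or 3 for Tnfaip2 (up to 0.097) and for Nfkb2 in every fit except that without ventilated 1 (up to 0.12). The count of 6 fell to 2 without control 2 and to 0 without both controls 2 and 3.

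The stretches before the starts of 5 of these genes are shown because they hold the kappa B motif, the decamer that NF-kB binds. Among the 13 genes that rose in the interleukin 6, CXC, CC and NF-kB lists, 12 had a window of 250 bases before the start in RefSeq (GRCm38.p6). In 5 of these the motif was found on either strand, where 4.46% of 27025 genes had it. The lists were chosen by pathway, that of NF-kB among them, and their members that were not called were not searched. The 2 shares therefore say nothing of the response to ventilation. The 120 bases before the start are printed in the direction of the gene, with the motif in capitals. Cxcl2 lies at chr5:90903779-90903898 (+ strand), with a pair of matches that overlap on opposite strands. Ccl20 lies at chr1:83116646-83116765 (+), Il6 at chr5:30012994-30013113 (+), Nfkbia at chr12:55492648-55492767 (- strand) and Nfkb2, at 1 of its starts, at chr19:46304617-46304736 (+), with 3 matches of which 2 overlap. A match is a run of letters and not a measured binding site.
Cxcl2: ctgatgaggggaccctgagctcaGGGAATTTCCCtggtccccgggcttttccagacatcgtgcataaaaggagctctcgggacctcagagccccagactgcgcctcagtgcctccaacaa
Ccl20: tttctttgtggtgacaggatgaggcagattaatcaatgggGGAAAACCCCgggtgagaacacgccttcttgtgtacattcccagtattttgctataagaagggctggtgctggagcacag
Il6: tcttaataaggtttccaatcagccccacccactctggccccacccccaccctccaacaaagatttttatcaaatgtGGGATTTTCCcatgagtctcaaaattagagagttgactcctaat
Nfkbia: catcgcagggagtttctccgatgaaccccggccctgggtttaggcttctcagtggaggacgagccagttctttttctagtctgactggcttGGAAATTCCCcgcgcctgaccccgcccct
Nfkb2: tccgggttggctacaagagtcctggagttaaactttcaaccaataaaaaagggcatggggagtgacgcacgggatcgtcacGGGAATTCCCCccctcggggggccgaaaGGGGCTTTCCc

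Acute phase proteins, which the body makes in quantity in the first hours of injury, rose in 6 of 23 measured genes and fell in none, with a median of 1.22. Serpina3n, an inhibitor of serine proteases that include granzyme and neutrophil enzymes, was at 11.64, 12.28, 11.81 and 11.30 in ventilated lungs, against 8.80, 8.68 and 8.92 in control lungs (difference 2.96, SE 0.27, limma adjusted p = 0.000288). It kept its call in all 7 fits, as Saa3 did. Pigr, which carries IgA across epithelium, rose by 1.80 with 1 control below background and the heme carrier Hpx by 1.03. Saa2 and Orm2 were below background in all controls, at least 2.68-fold and 2.62-fold higher, and Orm2 was above background on 3 of 4 ventilated arrays. The calls of Pigr (without control 2 or 3 or ventilated 1 or 2, adjusted p up to 0.087), Orm2 (in every fit but those without control 3 and ventilated 1, up to 0.12), Saa2 (in every fit but that without control 1, up to 0.16) and Hpx (in all 7 fits, up to 0.12) were lost, and the count of 6 lay between 2 and 4.

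Metal and oxidant defence genes changed by large amounts in few members. Mt2, a metallothionein that binds zinc and cadmium, was at 9.53, 9.82, 10.45 and 9.19 in ventilated lungs, against 5.71, 5.26 and 5.75 in control lungs (difference 4.17, SE 0.33, limma adjusted p = 0.000107). Slc39a1, a zinc importer, was below background in all controls, at least 1.58-fold higher, and these were 2 of 12 measured genes. Antioxidant genes that the factor NRF2 controls rose in 7 of 29 and fell in 2, with a median of 0.42. Gclc, the catalytic subunit of the rate-limiting enzyme of glutathione synthesis, was at 11.58, 12.41, 12.42 and 11.86 in ventilated lungs, against 9.56, 8.95 and 9.15 in control lungs (difference 2.85, SE 0.37, limma adjusted p = 0.00272). A second probe of Gclc gave a difference of 1.99 with an adjusted p of 0.12. Srxn1, which repairs oxidized peroxiredoxins, was at 7.41, 8.57, 9.33 and 8.23 in ventilated lungs, against 4.99, 4.55 and 5.46 in control lungs (difference 3.39, SE 0.48, limma adjusted p = 0.00408). Txnrd1, a thioredoxin reductase, was at 8.58, 9.15, 9.88 and 9.45 in ventilated lungs, against 7.72, 7.28 and 7.45 in control lungs (difference 1.78, SE 0.29). For these genes ventilated replicate 1 was the lowest of its group. Heme oxygenase 1 (Hmox1) was at 10.79, 11.42, 12.51 and 12.08 in ventilated lungs, against 9.37, 9.28 and 9.07 in control lungs (difference 2.46, SE 0.46). The glutathione transferases Gsta2 (9.08, 10.33, 10.63 and 10.04, against 6.78, 5.26 and 5.83 in control lungs) and Gsta1 (difference 3.08) are near-identical paralogs whose probes may share RNA, and Gclm, the other subunit of the Gclc enzyme, rose by 1.54. The peroxide-degrading enzymes Prdx2 and Cat (catalase) fell by 0.85 each, with 10.86, 10.70, 11.04 and 11.10 for Cat in ventilated lungs, against 11.74, 11.79 and 11.80 in control lungs. Calls were lost without control 2 or 3 for Hmox1 (adjusted p up to 0.061), Gsta1 (0.066), Gsta2 (0.08, also without ventilated 3) and Cat (0.083, also without ventilated 1 or 2), without control 3 for Prdx2 (0.062), without control 3 or ventilated 1 or 2 for Slc39a1 (0.058) and for Gclm in every fit but that without control 1 (0.15). The 7 risers became 3 without control 2 and 0 without both controls 2 and 3.

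The window before Mt2 and those before Txnrd1 and Gclm are shown because they hold the metal response motif (TGCACNC or TGCGCNC) and the antioxidant response motif (TGACNNNGC). Either strand was searched over 250 bases before the start. Only the motif that a window is shown for is in capitals, and it reads in the other direction where it lies on the other strand. Matches to the other motif are not marked. The metal response motif was in 1 of the 2 risers of its list and in 23.8% of all genes, and the antioxidant motif in 2 of 5 risers with a window and in 11.5% of all genes. These lists too were chosen by pathway and only their risers were searched, so the shares say nothing of the response. Mt2 lies at chr8:94172368-94172617 (+), with 3 matches to the metal response motif and an unmarked match to the antioxidant response motif (tgactcagc). Txnrd1 lies at chr10:82859056-82859205 (+), for 1 of its 3 starts, and Gclm at chr3:122245407-122245556 (+), where the match overlaps 1 to the metal response motif.
Mt2: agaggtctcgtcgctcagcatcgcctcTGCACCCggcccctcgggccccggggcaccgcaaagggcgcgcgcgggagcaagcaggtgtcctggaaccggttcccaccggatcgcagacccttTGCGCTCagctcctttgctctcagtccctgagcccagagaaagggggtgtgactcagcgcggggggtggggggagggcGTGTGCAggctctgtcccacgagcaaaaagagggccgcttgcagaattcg
Txnrd1: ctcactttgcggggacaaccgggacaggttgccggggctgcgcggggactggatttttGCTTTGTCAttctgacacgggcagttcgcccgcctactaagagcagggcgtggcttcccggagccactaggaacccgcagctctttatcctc
Gclm: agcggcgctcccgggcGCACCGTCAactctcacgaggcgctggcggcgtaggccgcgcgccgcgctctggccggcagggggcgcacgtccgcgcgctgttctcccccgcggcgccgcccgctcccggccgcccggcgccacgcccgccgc

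Some genes of amino acid stress and of growth arrest rose. Of 26 measured genes of the ATF4 pathway, through which cells answer amino acid shortage, 6 rose and none fell, with a median of 0.61. Asns, which makes asparagine, was at 9.28, 10.05, 10.20 and 9.46 in ventilated lungs, against 8.27, 7.78 and 7.80 in control lungs (difference 1.79, SE 0.25, limma adjusted p = 0.00383). Ddit4, an inhibitor of the growth kinase mTORC1, rose by 1.80, the translation repressor Eif4ebp1 by 1.04, the folate enzyme Mthfd2 by 1.79, the stress cofactor Nupr1 by 2.12 and the amino acid transporter chain Slc3a2 by 1.002. Ventilated replicate 2 was the highest for Mthfd2 (9.89) and Nupr1 (13.59). Atf4 itself was at 12.95, 13.42, 13.07 and 12.72 in ventilated lungs, against 12.26, 12.60 and 12.31 in control lungs (difference 0.65, SE 0.20, limma adjusted p = 0.0979), with no overlap and no call. Cdkn1a, the cell cycle inhibitor p21, was at 10.11, 10.32, 10.71 and 9.94 in ventilated lungs, against 6.27, 7.004 and 5.65 in control lungs (difference 3.96, SE 0.68, limma adjusted p = 0.00955). Gadd45g was at 9.34, 10.01, 9.28 and 9.59 in ventilated lungs, against 7.55, 7.27 and 7.29 in control lungs (difference 2.19, SE 0.28). Gadd45a, its relative in growth arrest and DNA repair, was at 9.53, 9.41, 9.72 and 9.39 in ventilated lungs, against 8.33, 8.52 and 8.43 in control lungs (difference 1.09, SE 0.24, limma adjusted p = 0.0283). These were 3 of 20 genes of the growth arrest and p53 list, whose median was 0.37. The study picked Gadd45a, Atf4, Mmp8 and Ccn5 for RT-PCR from these arrays, so their direction here is not independent evidence. Calls were lost without control 2 or 3 for Nupr1 (adjusted p up to 0.091), Eif4ebp1 (0.076) and Mthfd2 (0.077), the last 2 also without ventilated 3, for Slc3a2 without control 2 or 3 or ventilated 2, 3 or 4 (0.13) and for Gadd45a in every fit but that without ventilated 4 (0.094). The 6 ATF4 genes became 2 without control 2 or control 3 and 0 without both.

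Heat shock genes had a high median, 1.10 over 19 genes, with 1 called in each direction. The endoplasmic chaperone Hspa5 was at 10.09, 11.52, 11.12 and 10.71 in ventilated lungs, against 10.16, 8.91 and 9.40 in control lungs (difference 1.37, SE 0.34, limma adjusted p = 0.0484), where ventilated replicate 1 overlapped control replicate 1. The small heat shock protein Hspb2, which is abundant in muscle, fell by 1.64 with 6.41, 6.55, 6.47 and 6.86 in ventilated lungs, against 8.15, 8.22 and 8.27 in control lungs (SE 0.18, limma adjusted p = 0.000977). The list as a whole varied among ventilated mice, with a median deviation from the control mean of 0.21, 1.59, 1.47 and 0.78. Hsph1, picked after its values were seen, was at 2.43, 7.72, 7.38 and 4.32 in ventilated lungs, against 3.37, 2.78 and 3.29 in control lungs, and was not called (adjusted p = 0.345). The call of Hspa5 was lost without control 2 or 3 or ventilated 2, 3 or 4 (adjusted p up to 0.17).

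Glucocorticoid induced genes rose in 10 of 20 measured and fell in none, with the median at 1.31. Map3k6, a kinase upstream of stress kinases, was at 11.32, 10.92, 11.55 and 11.28 in ventilated lungs, against 8.46, 8.05 and 8.52 in control lungs (difference 2.93, SE 0.24, limma adjusted p = 0.000107). Klf9, a transcription factor, was at 11.79, 12.39, 11.88 and 12.21 in ventilated lungs, against 9.94, 10.06 and 10.24 in control lungs (difference 1.98, SE 0.28). Angptl4, an inhibitor of lipoprotein lipase, was at 11.67, 11.88, 11.49 and 11.74 in ventilated lungs, against 9.55, 8.84 and 8.91 in control lungs (difference 2.60, SE 0.39). The 4 ventilated mice lay close together for these genes. The phosphatase Dusp1 rose by 1.23, the EGF receptor inhibitor Errfi1 by 1.31, Cebpd by 1.53, the tyrosine aminotransferase Tat by 1.87 and the kinase Sgk1 by 1.19, with Mt2 and Ddit4 given above. Fkbp5, picked after its values were seen, was at 6.46, 6.41, 6.26 and 6.93 in ventilated lungs, against 5.38, -0.63 and 4.00 in control lungs, and missed the threshold (adjusted p = 0.0765), and Tsc22d3 overlapped (adjusted p = 0.384). With arrays left out in turn, calls ended for Sgk1 without control 2 or 3 or ventilated 1 or 3 (adjusted p up to 0.1) and for Tat without any control or ventilated 1 or 3 (up to 0.071). The count of 10 lay between 8 and 11 when single arrays were left out and was 2 without both controls 2 and 3. Of 29 early response transcription factors 5 rose and none fell, with Cebpd and Klf9 among them. Myc was at 5.54, 6.40, 6.61 and 6.53 in ventilated lungs, against 3.85, 4.25 and 4.44 in control lungs (difference 2.09, SE 0.29). Fosl1, a partner of Jun in the AP-1 factor, was at least 5.00-fold higher with all controls below background, and Nr4a3 rose by 0.999, a call lost without control 1 or 2 or ventilated 1, 2 or 3 (up to 0.11). Among 15 clock genes, Dbp, whose level swings over the day, fell by 3.07, with 7.91, 8.24, 8.25 and 8.70 in ventilated lungs, against 10.54, 11.66 and 11.84 in control lungs. Its call was lost in every fit but that without control 1 (up to 0.13), and the clock repressor Nr1d1 overlapped between the groups (adjusted p = 0.929). The share called in the clock list was 6.67%, where 4.14% of all genes were called.

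**Figure D3:**
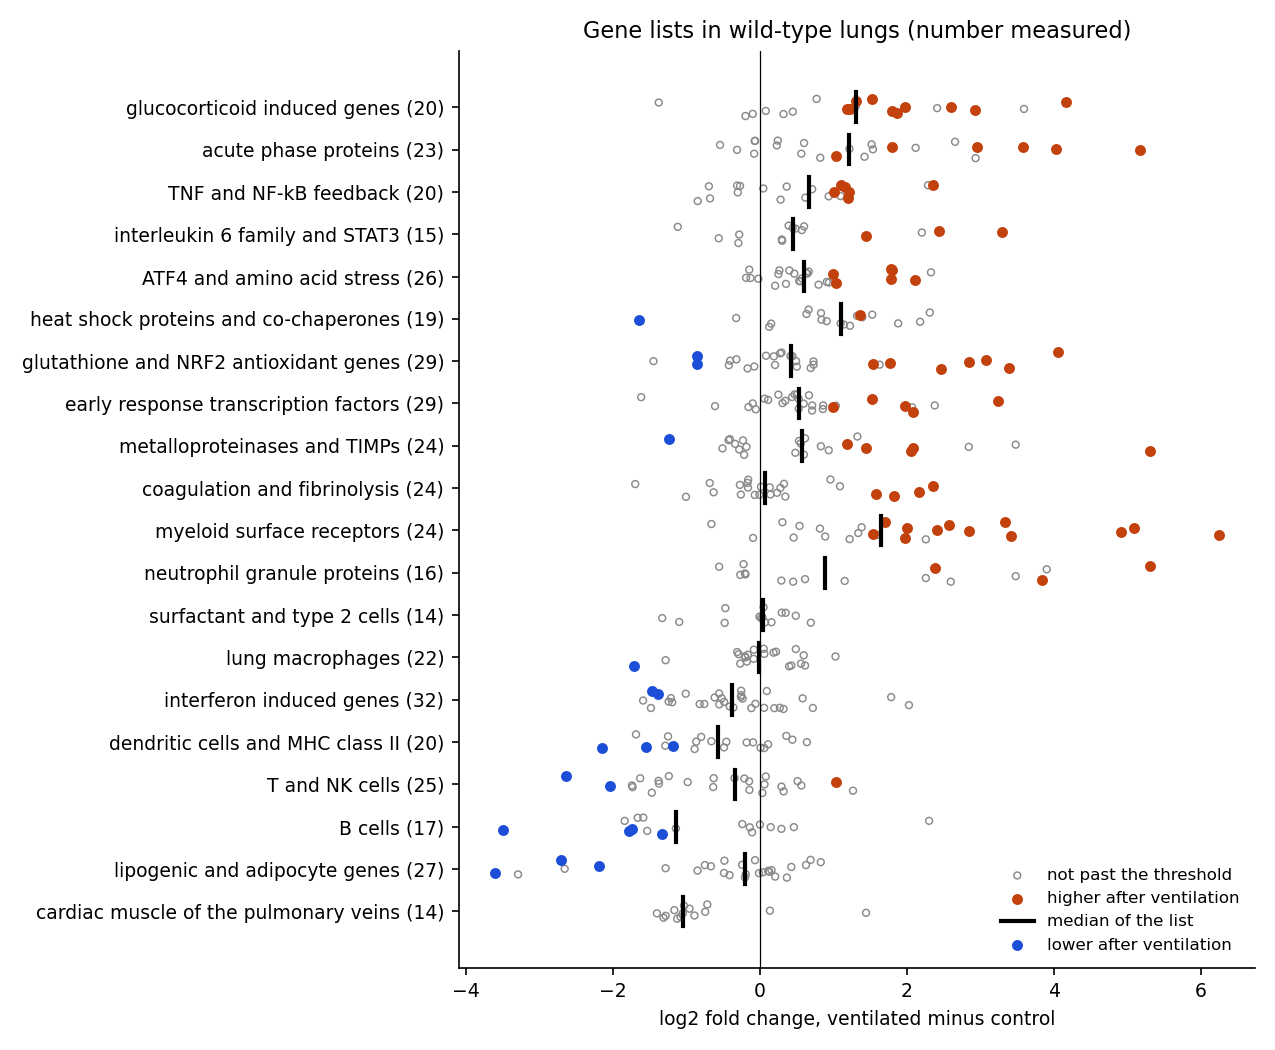
Log2 fold change of each measured gene (x axis, ventilated minus control wild-type lungs) in 20 gene lists (rows, number measured in brackets), with filled points for called genes and a black bar at the median of the list. The medians of glucocorticoid induced genes (1.31) and myeloid surface receptors (1.65) lie right of 0 and that of B cells (-1.14) left of it.

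Genes of proteases and clotting rose in part, and few endothelial genes were called. Of 24 metalloproteinases and their inhibitors 5 rose, Mmp8, the sheddase Adam8 (difference 2.06), the inhibitors Timp3 (1.19) and Timp1 (1.45) and Mmp24, which was below background in both groups and has no fold, and Mmp11 fell by 1.23. Of 24 clotting genes 4 rose and none fell. Tissue factor (F3), which starts coagulation, was at 9.38, 9.70, 10.46 and 9.88 in ventilated lungs, against 8.29, 7.58 and 8.19 in control lungs (difference 1.83, SE 0.30, limma adjusted p = 0.0074). Its counterpart Plat, the tissue plasminogen activator, was at 7.10, 7.15, 7.03 and 5.91 in ventilated lungs, against 5.20, 3.34 and 4.76 in control lungs (difference 2.36, SE 0.41). The urokinase receptor Plaur rose by 1.58 and the clot-stabilizing subunit F13a1 by 2.16. P-selectin (Selp), which holds rolling leukocytes on endothelium and platelets, was at 8.22, 8.45, 8.52 and 7.70 in ventilated lungs, against 6.19, 5.99 and 5.97 in control lungs (difference 2.17, SE 0.23, limma adjusted p = 0.00081). The platelet genes Pf4 (difference -0.05), Ppbp (-0.39) and Itga2b (0.47) were not called and overlapped between the groups. The platelet integrin Itgb3 was at least 1.23-fold higher, with all controls and 1 ventilated array below background. Adm, the vasodilator peptide adrenomedullin, was at least 5.16-fold higher, and Kdr, the main VEGF receptor, fell by 0.98. Of 24 measured endothelial genes 2 rose (Selp and Adm) and 1 fell (Kdr), with a median of -0.08. Without overlap 4 were higher and 4 lower, where 11.6% and 12.4% of all genes were. The markers Pecam1 and Cldn5 were not called (differences -0.22 and 0.77, limma adjusted p = 0.774 and 0.392). Pecam1 overlapped between the groups and Cldn5 did not. Lox, which crosslinks collagen and elastin, was at 8.55, 8.08, 8.49 and 8.68 in ventilated lungs, against 6.05, 6.37 and 6.78 in control lungs (difference 2.05, SE 0.24). Of 25 collagen and matrix genes none rose and Lum fell by 1.84 (4% called, where 4.14% of all genes were). Cmklr1, the chemerin receptor of myeloid and endothelial cells, rose by 3.58 with 2 controls below background. Calls were lost for Timp3 and F13a1 without control 2 or 3 or ventilated 1, 3 or 4 (adjusted p up to 0.086 and 0.11), for Plaur and Timp1 in every fit but that without ventilated 4 (0.13 and 0.15), for Mmp11 in every fit but that without ventilated 2 (0.12) and for Mmp24 in all 7 (0.13). They were also lost for Lum without control 1 or 2 or ventilated 1, 2 or 3 (0.12), for Kdr without control 2 or 3 or ventilated 1 or 3 (0.076) and for Itgb3 without control 1 or 3 or ventilated 1, 2 or 3 (0.11). Without control 2 or control 3, 2 metalloproteinase list genes and 2 clotting genes rose.

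Few genes of the alveolar and airway cell types were called, and those were lower. None of 14 surfactant and type 2 cell genes and none of 15 club cell genes was called by limma or by the Welch test, with medians of 0.05 and -0.21. The Welch test called only 9 of all 19621 probes, so that the lack of a call by it does not show that genes were unchanged. At an unadjusted p under 0.05, 1 surfactant list gene was higher and 2 were lower, and 5 club cell genes were lower. Of all 19621 probes, 3964 were under that p in either direction. Of 10 type 1 cell genes, the anchoring protein Akap5 fell by 1.58, with 8.11, 8.15, 7.35 and 8.17 in ventilated lungs, against 9.56, 9.62 and 9.39 in control lungs, and the list had a median of -0.49. In that list 5 genes were lower without overlap, where 12.4% of all genes were, and 4 were lower at an unadjusted p under 0.05, with none higher by either count. Of 17 ciliated cell genes the dynein subunits Dynlrb2 and Dnaic1 fell by 1.01 and 0.88 and none rose, with a median of -0.35. These 2 called genes were also the 2 lower at an unadjusted p under 0.05, and 4 genes of the list were lower and 1 higher without overlap. The sodium channel subunit Scnn1b fell by 0.64, with nearly the same level in each ventilated mouse (9.96, 9.94, 9.95 and 9.95), against 10.58, 10.59 and 10.61 in control lungs. Genes of stratified epithelium gave 2 risers among 24, the crosslinking enzyme Tgm1 (6.27, 6.29, 7.14 and 5.66 in ventilated lungs, against 3.59, 2.08 and 3.05 in control lungs, 2 of them below background) and its substrate Sprr1a, at least 6.51-fold higher with all controls below background, and Lgals7 was called lower, at the lowest value of the scale in all ventilated lungs (3.63, 1.81 and 3.90 in control lungs). Keratin 8 (Krt8) was at 5.32, 6.16, 5.79 and 5.75 in ventilated lungs, against 4.34, -0.63 and 3.10 in control lungs, 2 of them below background (difference 3.49, SE 0.86, limma adjusted p = 0.0475). The difference was 2.04 without control 2 and 4.52 without control 1, so that its size rests on values below background. Its partner Krt18 rose by 0.60. No gene of the 36 cell cycle genes was called (median -0.34) by limma or by the Welch test, with 0 calls in each of the 7 fits and 4 genes lower at an unadjusted p under 0.05. Leaving out single arrays ended the calls for Dynlrb2 without control 2 or 3 (adjusted p up to 0.063), for Krt8 without control 3 or any ventilated mouse (0.1), for Lgals7 in every fit but that without control 2 (0.12), for Dnaic1 in every fit but that without control 1 (0.14) and for Scnn1b and Krt18 in all 7 (0.13 and 0.12).

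Genes of B cells fell in 4 of 17 measured and rose in none, with a median of -1.14. The median deviation of the list from the control mean was -0.38, -1.11, -0.81 and -1.06 on ventilated replicates 1 to 4. Its summed level (log2) lay between 11.6 and 12.1 in ventilated lungs and between 11.7 and 12.7 in control lungs, with overlap. Ms4a1, which encodes CD20, was at 3.38, 2.45, 4.69 and 4.04 in ventilated lungs, 1 of them below background, against 7.63, 6.95 and 6.81 in control lungs (difference -3.49, SE 0.59, limma adjusted p = 0.00942). Cd79b, a chain of the B cell receptor, was at 7.04, 6.59, 6.53 and 7.12 in ventilated lungs, against 8.94, 8.56 and 8.28 in control lungs (difference -1.78, SE 0.27). Fcrla fell by 1.74 and the complement receptor Cr2 by 1.33, while Cd79a, picked after its values were seen, did not differ detectably (difference 0.00, SE 0.26). Genes of antigen presentation fell in 3 of 20, with a median of -0.57. H2-Ob was at 4.94, 4.86, 4.52 and 4.97 in ventilated lungs, against 7.23, 6.996 and 6.65 in control lungs (difference -2.14, SE 0.28, limma adjusted p = 0.00294). The master regulator of MHC class II genes, Ciita, fell by 1.55 and H2-DMb1 by 1.18. Of 25 T and NK cell genes the NK receptor genes Klrk1 (difference -2.03) and Ncr1 fell, Ncr1 being below background in all ventilated lungs and at least 3.82-fold lower, and granzyme B (Gzmb) rose by 1.03. Of 32 interferon induced genes Psmb9 and Ifit3 fell by 1.38 and 1.47 (6.25% called, where 4.14% of all genes were). The mast cell protease gene Cpa3 was at least 2.22-fold lower, with all ventilated lungs below background. Ackr4, a scavenger receptor for chemokines of lymph node homing, was below background in all ventilated lungs and at 5.46, 5.97 and 5.51 in control lungs, at least 5.38-fold lower (limma adjusted p = 0.00785). With arrays left out in turn, calls ended for Cr2 without control 2 or ventilated 1, 2 or 3 (adjusted p up to 0.093), for H2-DMb1 in every fit but that without ventilated 4 (0.077), for Klrk1 and Ncr1 in all 7 (0.12 and 0.13) and for Psmb9 without control 2 or ventilated 1 or 3 (0.072). They also ended for Ifit3 without any control or ventilated 1 or 4 (0.075), for Cpa3 in every fit but that without control 2 (0.12) and for Gzmb without control 3 or ventilated 3 (0.077). The B cell count of 4 lay between 3 and 4.

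Of 27 lipogenic and adipocyte genes 3 fell and none rose, with a median of -0.20. Without overlap 7 were lower and 3 higher, where 12.4% and 11.6% of all genes were, and 6 were lower and 2 higher at an unadjusted p under 0.05. Of all 19621 probes, 3964 were under that p in either direction. Adipoq, the fat hormone adiponectin, was at 8.16, 8.31, 8.52 and 9.50 in ventilated lungs, against 11.05, 11.67 and 11.24 in control lungs (difference -2.70, SE 0.56, limma adjusted p = 0.0235). Thrsp, a regulator of fatty acid synthesis, was at 2.18, 2.95, 3.33 and 4.88 in ventilated lungs, 3 of them below background, against 6.73, 6.87 and 7.20 in control lungs (difference -3.60, SE 0.79). Retn, or resistin, fell by 2.19. Car3, a carbonic anhydrase abundant in fat and muscle, was at 4.26, 4.40, 4.58 and 6.32 in ventilated lungs, against 8.19, 8.37 and 8.21 in control lungs (difference -3.37, SE 0.58, limma adjusted p = 0.00952). Arxes2, a gene of adipocyte differentiation, was at 7.04, 7.08, 7.05 and 7.50 in ventilated lungs, against 9.56, 9.75 and 9.62 in control lungs (difference -2.48, SE 0.24). In these 5 genes ventilated replicate 4 was the highest of its group. The fat genes Pck1, Ucp1 and Fabp4 had differences of -3.29, -2.65 and -1.28 without overlap and no call (adjusted p = 0.0849, 0.259 and 0.187). In the other direction, the lipase gene Pnpla2, the lipid droplet gene Plin2 and the lipoprotein lipase gene Lpl had differences of 0.83, 0.69 and 0.43, also without overlap and with no call (adjusted p = 0.0749, 0.201 and 0.585). These 6 genes were picked after their values were seen. The summed level of the 27 genes lay between 13.7 and 14.0 (log2) in ventilated lungs and between 14.2 and 14.4 in control lungs, and the part of fat tissue in the results was not tested. Calls were lost for Adipoq, Thrsp and Retn without control 2 or 3 or ventilated 1, 2 or 3 (adjusted p up to 0.092, 0.1 and 0.12), which left 0 of 3 list calls in each of these 5 fits.

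Some markers of the pleura and of the muscle around the pulmonary veins were lower. Mesothelial genes fell in 3 of 13, Msln (3.06, 3.95, 3.19 and 3.46 in ventilated lungs, 2 of them below background, against 5.66, 5.86 and 6.05 in control lungs), the mucin Muc16 (difference -2.24) and the retinoic acid enzyme Aldh1a2 (-1.58), and rose in the 2 keratins given above, with a median of -0.17 that was positive with quantile normalization and with median centring. None of 14 cardiac muscle genes was called by limma or by the Welch test, which called only 9 of all 19621 probes and so cannot decide this. The median was -1.04, and 7 of the 14 were lower without overlap, where 12.4% of all genes were. At an unadjusted p under 0.05, 8 were lower, where 3964 of all 19621 probes were under that p in either direction. Actc1, the cardiac actin, was at 10.38, 10.02, 10.37 and 11.22 in ventilated lungs, against 11.52, 11.55 and 12.26 in control lungs (difference -1.28, adjusted p = 0.0502), and the atrial light chain Myl7 at 11.82, 11.86, 11.85 and 12.51, against 12.75, 12.74 and 13.39 in control lungs (adjusted p = 0.231). Actc1 was not among the planned cardiac markers. The planned marker Myh6 overlapped between the groups and was not called (difference -0.89, SE 1.33, limma adjusted p = 0.773). It was below background on all ventilated arrays and on 2 control arrays. Of 18 skeletal muscle genes Pygm fell by 1.02 (5.56% called, where 4.14% of all genes were). The summed level (log2) lay between 13.1 and 13.8 in ventilated lungs and 14.1 and 14.8 in control lungs for the cardiac list, between 9.95 and 10.3 in ventilated lungs and 10.7 and 10.9 in control lungs for the skeletal list, and between 13.004 and 13.5 in ventilated lungs and 12.8 and 13.1 in control lungs, with overlap, for the mesothelial list. The part of such tissue in the results was not tested. Leaving out single arrays ended the calls for Msln without control 2 or 3 or ventilated 1, 3 or 4 (adjusted p up to 0.11), for Muc16 without control 3 or ventilated 1, 2 or 3 (0.097), for Aldh1a2 without control 2 or 3 or ventilated 1, 2 or 3 (0.13) and for Pygm in all 7 fits (0.16).

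Of the remaining genes with large decreases, Ccn5, a matricellular protein of the CCN family, was at 6.79, 6.80, 6.59 and 7.34 in ventilated lungs, against 9.58, 9.46 and 9.62 in control lungs (difference -2.68, SE 0.36, limma adjusted p = 0.00338). Wnt3a was at 5.63, 6.76, 5.91 and 6.33 in ventilated lungs, against 7.89, 8.02 and 8.20 in control lungs (difference -1.88, SE 0.29), and Wnt2, a Wnt ligand of lung mesenchyme, was below background in all ventilated lungs and at least 4.4-fold lower. These were the 2 called among 35 Wnt genes (5.71%), where 4.14% of all genes were called. Misp3 was at 6.79, 7.07, 6.66 and 7.09 in ventilated lungs, against 9.79, 10.46 and 10.11 in control lungs (difference -3.22, SE 0.26, limma adjusted p = 0.000107). Lbh, a transcription cofactor of limb bud and heart, fell by 3.02 on 1 probe and was called on a second. Lrat, which stores retinol as ester, fell by 2.85 on 1 probe. A second Lrat probe was below background in all ventilated lungs and at least 2.06-fold lower (limma adjusted p = 0.0111). Cthrc1, a secreted protein found in injured rat arteries, fell by 2.79, Shisa2 by 2.55, Ly6d by 2.53, Zfp454 by 2.51 and the growth factor Nrg4 by 2.18. Cyp4a12a, a fatty acid hydroxylase, fell by 2.47 on 1 probe, while another gave -0.26 (adjusted p = 0.595). The sterol carrier gene Stard4 fell by 0.86, whereas Pmvk, a kinase of the cholesterol pathway, rose with 13.76, 13.45, 13.64 and 13.43 in ventilated lungs, against 10.96, 11.20 and 11.22 in control lungs (difference 2.44, SE 0.26, limma adjusted p = 0.000668). The cadherin Celsr3, the potassium channel subunit Kcne4 and Enc1 were also called higher, with 2, 1 and 2 of the controls below background. Their differences were 4.44, 3.63 and 3.62, but lay between 3.49 (without control 2) and 5.96 (without control 3) for Celsr3, between 2.17 (without control 2) and 4.45 (without control 1) for Kcne4 and between 2.89 (without control 2 or control 3) and 5.08 (without control 1) for Enc1, so that neither the sizes nor their order are settled. The unnamed 3110001I22Rik rose by 3.43 with 1 control below background, and Nutm1 was at least 7.09-fold higher. Among the genes that fell, the first Lrat probe was below background on 2 ventilated arrays and Cthrc1, Zfp454 and Cyp4a12a on 1 each. The proteasome subunit Psmd12 rose by 0.99 on 1 probe, while another gave 0.53 (limma adjusted p = 0.185). The tubulin Tubb2b rose by 0.89. The genes 4930503E14Rik and Fam122b were at least 4.16-fold and 2.11-fold lower, with all ventilated lungs below background. Removing 1 array ended the calls for Celsr3 without control 1 or 2 or ventilated 1, 3 or 4 (adjusted p up to 0.1), for Kcne4 without any ventilated mouse (0.11), for Enc1 in every fit but that without control 1 (0.14) and for Nutm1 without control 2 or ventilated 1 or 3 (0.08). It did so for the first Lrat probe in every fit but that without ventilated 2 (0.13) and for Zfp454 without control 2 or 3 or ventilated 2 or 3 (0.075). The same held for Cyp4a12a and Nrg4 in every fit but that without ventilated 4 (0.11 and 0.1) and for Stard4 and Psmd12 in all 7 (0.17 and 0.11). The calls of Wnt2 and Tubb2b were lost without control 2 or 3 (0.056 and 0.079) and that of 4930503E14Rik without control 3 (0.064).

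**Figure D4:**
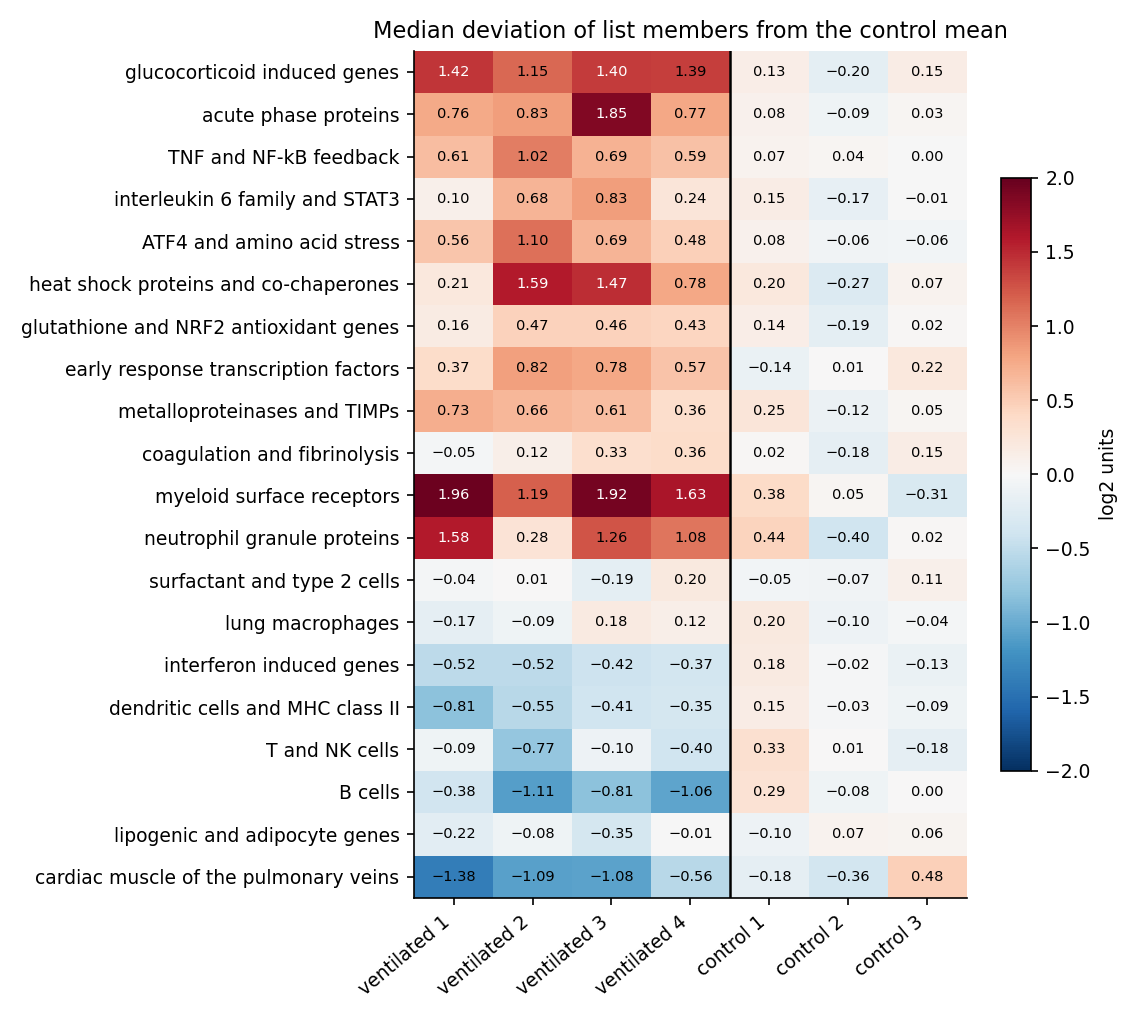
Median deviation of each list's members from the control mean (log2) on each wild-type array, with ventilated arrays left of control arrays. The heat shock list reads 0.21, 1.59, 1.47 and 0.78 on ventilated replicates 1 to 4, and the myeloid receptor list 1.96, 1.19, 1.92 and 1.63.

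The ventilated mice did not respond in 1 order. The myeloid receptor list deviated by 1.96, 1.19, 1.92 and 1.63 from the control mean, with 0.38, 0.05 and -0.31 for the controls, and the neutrophil granule list by 1.58, 0.28, 1.26 and 1.08. Replicate 2 was thus the lowest of the 4 for both lists, and the highest for the ATF4 list (0.56, 1.10, 0.69 and 0.48) and the heat shock list. The glucocorticoid list was the most even of those with high medians, at 1.42, 1.15, 1.40 and 1.39.

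The question of whether the response of wild-type lungs differed from that of jnk1-/- lungs was addressed by the difference of the 2 ventilation effects. It was called for 75 of all probes (0.382%) and for 13 of the 718 probes called in wild-type lungs (1.81%), a share that cannot be set against all probes because the same wild-type arrays enter both. Of the 718 probes, 634 had the same sign in jnk1-/- lungs, 376 were also called there in the same direction and 2 in the opposite one. The same counts were not made over all probes, so these have no background to be judged by. Among genes called in wild-type lungs, Ccl20 differed (limma adjusted p = 0.0186), with no exact size because its wild-type controls were all below background. Beside the wild-type values above, it was at 2.92, 3.29, 6.19 and 4.56 in ventilated jnk1-/- lungs and at 6.97, 5.71 and 5.35 in control jnk1-/- lungs, so that the wild-type controls were low and the jnk1-/- controls high. Them5, a mitochondrial thioesterase of cardiolipin metabolism, was at 8.20, 7.62, 7.49 and 7.39 in ventilated wild-type lungs, against 5.36, 5.44 and 5.66 in control wild-type lungs, and at 5.66, 6.26, 7.20 and 7.03 in ventilated jnk1-/- lungs, against 9.04, 7.95 and 8.20 in control jnk1-/- lungs (difference 4.04, SE 0.53, limma adjusted p = 0.00979). Bex2, a small brain-expressed X-linked gene, was at 7.75, 7.73, 7.60 and 7.91 in ventilated wild-type lungs, against 10.01, 10.08 and 10.03 in control wild-type lungs, and at 8.01, 7.85, 7.29 and 7.62 in ventilated jnk1-/- lungs, against 8.25, 8.28 and 8.31 in control jnk1-/- lungs (difference -1.71, SE 0.25, limma adjusted p = 0.0158). For Bex2 the ventilated lungs of both genotypes were at like levels and the controls were apart. Klhdc8b (difference -1.62) and 9130015A21Rik (1.81) also differed. In jnk1-/- lungs, the skeletal muscle markers Acta1, Mylpf, Tnnt3 and Ckm were lower after ventilation (differences -7.37, -6.61, -4.66 and -5.57). The squamous markers Krt4, Krt13 and Sprr3 were lower there too (-2.64, -6.43 and -6.62). Such tissue thus differed between ventilated and control jnk1-/- lungs, and its part in the differences between genotypes was not tested. Foxl1, Pax8 and Vmn1r172, below background on all 7 wild-type arrays, and Matn4, below background on 6 of them, passed the test as well and have no size here. Mmp8 rose by 5.41 and Il1r2 by 5.23 in jnk1-/- lungs, and the difference between genotypes was not called for either (adjusted p = 0.946 and 0.63). The calls of Klhdc8b and Foxl1 in wild-type lungs were lost without control 2 or 3 or ventilated 1, 2 or 3 (adjusted p up to 0.1 and 0.083).

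**Figure D5:**
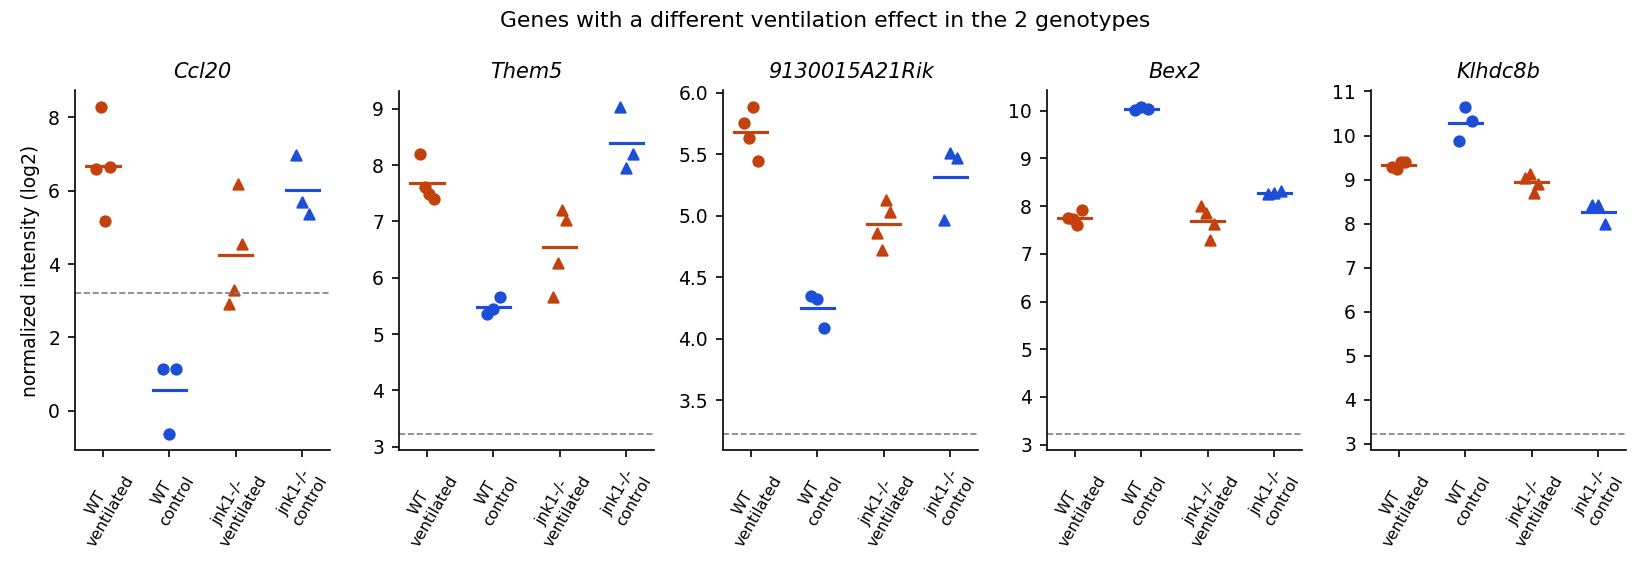
Normalized log2 intensity (y axis) of 5 genes whose ventilation effect differed between genotypes, with wild-type (WT) groups left of jnk1-/- groups, ventilated left of control, a point per array, a bar at the group mean and a dashed line at the background level. For Ccl20 and Them5 the jnk1-/- controls lie high where the wild-type controls lie low.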

How the data were processed

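RNA of each lung was labelled with biotin, stained with Cy5-streptavidin and read on 1 CodeLink array. The deposited files hold log2 intensities of 19621 probes an array, on which no normalization between arrays was done; the smallest is -6.861, and there are no quality flags. The sources used here do not state the scanner's background step. The authors' table of log2 values was normalized by cyclic loess and has a floor at 3.122. Here the deposited values were normalized anew by cyclic loess over all pairs of the 14 arrays, with values at the lowest left out of the curves and a floor at the 1st percentile (-0.63). Above the authors' floor they correlated with the authors' values at 0.990 or more on each array. limma 3.58.1 (R 4.3.3) fitted 1 mean per group on all 14 arrays (10 residual degrees of freedom), and p-values were adjusted by Benjamini-Hochberg over all probes. Nothing shows whether arrays of a group came from separate experiments, and p-values measure the spread between these arrays. The precision is limited by 4 against 3 arrays.

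Probe names came from the platform's annotation, in which 15353 probes name 1 gene, 91 several and 4177 none. Of several probes, the one with the highest mean over all arrays stood for a gene in list counts. Named were the 15 largest differences and 6 largest bounds in each direction without overlap between groups, up to 4 called members of each of 48 gene lists (1093 genes, 919 measured), the RT-PCR genes, up to 5 genes in each direction of the genotype difference, and cell type markers; further called members of a list are named beside its count. Members and lists were chosen with earlier results of these data known. On simulated data, 65% of 4-fold and 22% of 2-fold changes between ventilated and control wild-type lungs were recovered among 19621 probes, with 200 changed and 2 false calls. The simulated noise was normal, with the same spread of a probe on every array and no floor. Its false calls therefore do not measure the share of errors among the real calls. Alternatives were other normalizations, the authors' table, the methods' Welch test, filters, floors, array weights, blocks, arrays left out, arrays of 1 genotype alone and the mean of close pairs of arrays.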

Additional observations from a re-analysis of the deposited data

Results flagged for a closer look

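Single ventilated wild-type mice lay far from the other 3 of their group for 11 of 169 probes tested with Dixon's criterion, where chance gives about 1 in 20. Replicate 4 was high for Car3 (6.32), Retn (7.82), Arxes2 (7.50) and Myl7 (12.51) and low for Plat (5.91). Replicate 2 was high for Nupr1 (13.59) and Myd88 (8.91). Replicate 1 was high for Sftpa1 (14.60) and low for Gclm (8.69) and Lbh (3.79), and replicate 3 was low for Akap5 (7.35).

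The ventilation effect of wild-type minus that of jnk1-/- lungs (log2) passed the threshold of the interaction test for Them5 (4.04), 9130015A21Rik (1.81), Bex2 (-1.71) and Klhdc8b (-1.62). It passed too for Ccl20 (7.89), Matn4 (-2.50), Foxl1 (5.64), Pax8 (-3.54) and Vmn1r172 (3.57), fitted values that are no measure of size, since the wild-type controls of Ccl20, 6 of 7 wild-type arrays of Matn4 and all 7 of the other 3 genes were below background. It also passed for the markers of skeletal muscle Acta1 (8.34), Mylpf (5.46) and Tnnt3 (4.50) and of squamous epithelium Krt13 (8.46) and Krt4 (2.97). None of these was called in wild-type lungs, and Krt13 was below background in all wild-type controls. Each was called lower after ventilation in jnk1-/- lungs.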

How the results depend on the processing

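The 718 calls of the ventilation effect became 1138 with the authors' table, 9 with the methods' Welch test (3376 probes at an unadjusted p under 0.05, against 3964 with limma), 451 with the 7 wild-type arrays alone, 1098 of 14613 without dim probes, 2188 with array weights, 221 with close pairs of arrays averaged, 174 without both controls 2 and 3, and 301 to 1028 with each wild-type array left out. The difference between genotypes, 75 calls, became 207, 4, 128 (dim probes out), 342 (weights) and 19 (pairs averaged) under the same alternatives, 150 with the floor at the 10th percentile and 32 to 252 with single arrays left out. Of the 718 calls 424 were higher and 294 lower; the split was 607 and 177 with quantile normalization, 745 and 283 with median centring, which moved the median of all probes to 0.216 and 0.198, and 554 and 584 with the authors' table. Medians of the CC chemokine list (-0.14) and the mesothelial list (-0.17) turned positive under both scalings, and that of the surfactant list (0.05) was -0.09 with median centring. Of the 152 called probes that are named, 122 lost the call without both controls 2 and 3, 147 under the Welch test, 82 with pairs averaged and 53 with the wild-type arrays alone; 0 changed sign under any of the alternatives. Replicate numbers are shared between groups, but deviations of same-numbered arrays correlated at -0.011, 0.0011 and 0.0077, so the numbers were not taken to pair the mice; with the replicate block the calls numbered 302, and 25 for the genotype difference. The Welch test was run here on all probes after the new normalization. The study's quality filter could not be repeated without flags, so the 9 calls do not stand for the study's own procedure. After that filter, the study listed genes past an adjusted Welch test and further criteria in both genotypes. The share of probes at the floor, 21.8% to 25.6% of each array, limits what can be said of low levels.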
